A study of Homo sapiens with 2 samples.

Results

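Cathepsins and legumain are the main endopeptidases and exopeptidases of the lysosome. The 10 genes described here were taken by name from the gene table: the cysteine cathepsins CTSB, CTSC, CTSH, CTSK, CTSL, CTSS and CTSZ, the aspartic protease CTSD, the serine carboxypeptidase CTSA, and LGMN, which encodes the asparaginyl endopeptidase legumain. They are 10 of 30856 gene rows, and 9 of them reached 1 FPKM in at least 1 library, as did 11388 genes with a symbol over the whole table; LGMN did not. FPKM counts fragments relative to transcript length and library size, so levels of different genes can be set side by side on it. Cathepsin G, a serine protease of azurophil granules, is not one of the 10.

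Polyadenylated RNA had been sequenced from THP-1 cells, a human monocytic leukaemia line. The parental group was 1 library of untreated cells. The resistant group was 1 library of THP-1 cells selected in cytarabine (Ara-C), a nucleoside analogue used against acute myeloid leukaemia, whose concentration was raised from 5 nM to 10 µM until the cells doubled as fast as untreated ones. Whether the drug was present at harvest is not stated in the labels, and neither is whether the resistant cells were 1 clone or a pool. With 1 library per group there was no replicate spread and no test between conditions: every difference below is one between 2 libraries. The 95% intervals cover counting error alone, and they treat reads as independent molecules.

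Most cathepsins are made as inactive proenzymes, tagged with mannose 6-phosphate in the Golgi and activated in the acid of the endosome and lysosome. Together they degrade endocytosed and autophagic protein. In monocytes and macrophages they also trim the invariant chain of class II molecules, and cathepsin C activates the granule serine proteases. Cystatins bind and inhibit the cysteine cathepsins, and TFEB and TFE3 are transcription factors that drive many lysosomal genes through an E-box in the promoter.

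Sequence before the annotated start was at hand for 6 of the 10 genes (CTSA, CTSC, CTSD, CTSH, CTSL and CTSZ; RefSeq, GRCh38.p14). The 250 bases before each start were searched on both strands for the palindromic E-box core CACGTG, for CCAAT and for the GC box GGGCGG, which reads CCGCCC on the other strand. No match of one motif overlapped a match of another in these genes. The E-box was present before CTSA and CTSD only among the 6, and in 6.34% of 35116 promoters of the same length. CCAAT was present before CTSC and CTSL, and in 32.0% of all promoters. The GC box was present before all 6, with 5 matches each for CTSD, CTSH and CTSZ, and in 42.6% of all promoters. Windows of 30 bases, 5′ to 3′ on the strand of the gene, are shown around 1 kind of motif per gene, in capitals. The motif shown is the E-box where present, otherwise CCAAT, otherwise the GC box. The windows of different genes thus show different motifs by this rule, and the GC boxes of CTSA, CTSC, CTSD and CTSL are not shown.
CTSA, E-boxes 42 and 25 bases before the start (chr20:45891290-45891319, plus strand): tgtCACGTGgcgccggagttCACGTGactc
CTSD, E-box, 47 bases before the start (chr11:1763957-1763986, minus strand): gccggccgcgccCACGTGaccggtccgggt
CTSL, CCAAT, 86 bases before the start (chr9:87726021-87726050, plus strand): ctgccggcacagCCAATcgcagcgcagcca
CTSC, CCAAT, 84 bases before the start (chr11:88337803-88337832, minus strand): ggcgcccaacccCCAATcccctgctgctca
CTSH, GC box, 59 bases before the start (chr15:78945088-78945117, minus strand): cccgcgctcgctCCGCCCcttcgcgctccc
CTSZ, GC box, 17 bases before the start (chr20:59007255-59007284, minus strand): agccttaagggccGGGCGGggcaggggccc
In the GENCODE 29 annotation the CTSA, CTSD, CTSH and CTSL windows fall inside an annotated exon of the same gene, and the CTSC and CTSZ windows fall in no exon. The 4 of these genes that were higher in resistant cells hold an E-box or CCAAT as well as the GC box. The 2 that were lower, CTSH and CTSZ, hold the GC box alone. This split joins different motifs, and CCAAT was before 2 of the 6 genes (33.3%), near its share of 32.0% over all promoters. CTSB and LGMN, also lower, were not searched. It is a description of 6 genes with no test. Genes with the same motif differed in size: CTSD and CTSA share the E-box but stood 1.82-fold and 1.09-fold higher in resistant cells, and CTSL and CTSC share CCAAT but stood 2.02-fold and 1.30-fold higher. A match is a description of the letters, not of binding.

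The resistant cells held more cathepsin L and cathepsin D transcript and less cathepsin B, H and Z transcript than the parental cells. CTSL was 2.02-fold higher (95% counting interval 1.94 to 2.11) and CTSD 1.82-fold higher (1.76 to 1.88), each as counts relative to the library total (CPM). CTSB was 1.57-fold lower (1.51 to 1.62), CTSH 1.44-fold lower (1.35 to 1.53) and CTSZ 1.30-fold lower (1.23 to 1.37). CTSC was 1.30-fold higher, as far from equal as CTSZ. CTSK was 1.14-fold higher, and CTSA and CTSS were 1.09-fold higher. The direction thus differed within the family, also among the cysteine cathepsins.

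**Figure D1:**
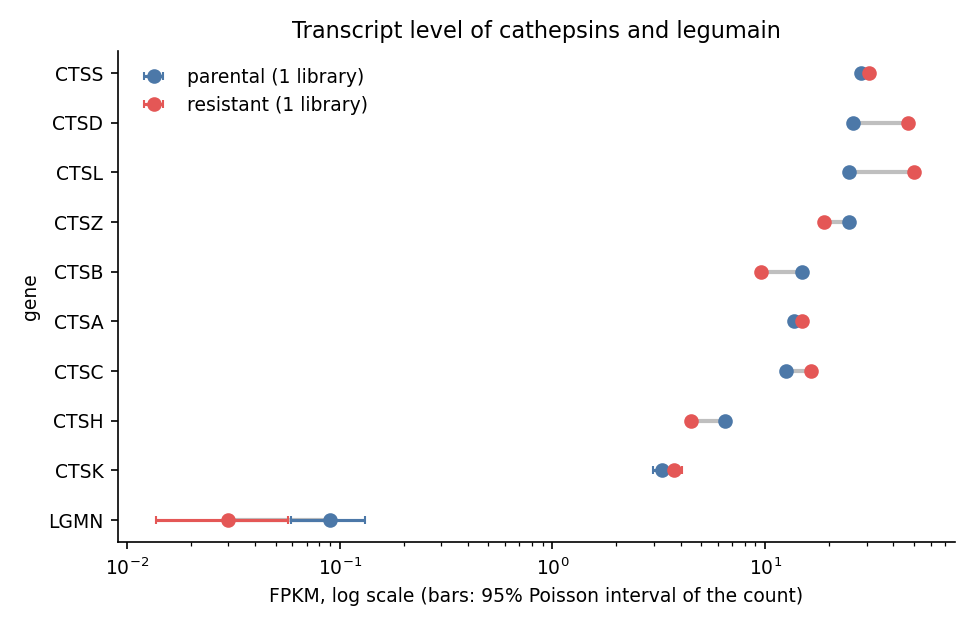
Transcript level (FPKM, log scale) of the 10 genes in the parental (blue) and the resistant (red) library, 1 library each; bars are 95% Poisson intervals of the counts. CTSL and CTSD move furthest to the right, to 50.3 and 47.0 FPKM, while CTSB, CTSH and CTSZ move to the left, as does LGMN, by the most on this scale, from 0.09 to 0.03 FPKM.

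By the size rule used in place of a test, the log2 ratio of FPKM + 1, 0 of the 9 expressed genes were at least 2-fold apart. Over all 11388 genes, 0.632% passed that limit upward and 1.23% downward. CTSL lay just inside that limit, with a log2 ratio of 0.99, since the added 1 FPKM shrinks ratios. With a pseudocount of 0.1 FPKM its log2 ratio was 1.01 and the count became 1. At 1.5-fold, CTSL and CTSD were higher, 2 of 9 beside a background of 2.93%, and CTSB was lower, 1 of 9 beside 4.77%. CTSB was at the edge of this rule, with a log2 ratio of -0.60 against the limit of 1.5-fold, and at -0.58 it missed the limit once FPKM was scaled to a median ratio of 0 over all genes. The counting interval lay above equal levels for 5 of 9 genes and below for 3 of 9, beside 33.7% and 39.1% of all expressed genes, so at this depth the interval leaves out equal levels for most genes. CTSK was the exception among the 9 (1.14-fold, 0.993 to 1.30).

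Cathepsin L, a cysteine endopeptidase of broad specificity, lies on chromosome 9 from 87726109 to 87731393 (GRCh38, plus strand) in the table. Its level was 24.9 FPKM in the parental and 50.3 FPKM in the resistant library, from 3076 and 6318 counts. It went from the third to the first place among the 10 genes. Over all 11388 expressed genes its log2 ratio ranked 79 from the top. CTSV, its closest relative, went the other way at a low level, with 1.77 FPKM in parental and 1.34 FPKM in resistant cells (1.32-fold lower, 1.16 to 1.51). The pseudogene rows named after CTSL held 0 to 2 counts in either library, so few reads were assigned to these copies. How reads that map to several places were treated is not given in the sources used here.

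Cathepsin D, the aspartic endopeptidase of the lysosome, lies near the end of the short arm of chromosome 11, from 1752755 to 1764573 (minus strand). Its level was 25.9 FPKM in parental and 47.0 FPKM in resistant cells, from 5314 and 9815 counts, and its log2 ratio of 0.84 ranked 144 from the top. A protein-coding row with only a clone name overlaps it over 11200 bases on the same strand and had 492 counts in parental and 590 in resistant cells. A noncoding row on the same strand had 2 and 5 counts, and one on the other strand 44 and 38. With the counts of the same-strand overlapping rows added, the locus was 1.77-fold higher (1.71 to 1.82). The neighbours of CTSD were higher as well: the 20 nearest expressed genes, 10 on each side, had a median log2 ratio of 0.25, and 15 of the 20 were above 0. CTSD ranked second among these 21 genes and stood 0.59 above the neighbours' median on the log2 scale. The part of the neighbourhood in its difference was not tested.

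Cathepsin B, a cysteine protease with both endopeptidase and dipeptidyl carboxypeptidase activity, is on chromosome 8 from 11842524 to 11868713 (minus strand). It stood at 14.9 FPKM in parental and 9.52 FPKM in resistant cells, from 7301 and 4732 counts. Its neighbours had a median log2 ratio of -0.03. Only 2 of the 20 neighbours had a lower ratio than CTSB. A same-strand noncoding row overlapping it had 12 and 1 counts.

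Cathepsins H and Z are exopeptidases: CTSH is an aminopeptidase and CTSZ a carboxypeptidase. CTSH (chromosome 15, 78921058 to 78949574) was at 6.45 FPKM in parental and 4.48 FPKM in resistant cells, from 2540 and 1794 counts. CTSZ (chromosome 20, 58995185 to 59007254) was at 24.6 and 18.9 FPKM, from 3360 and 2626 counts. For both genes the neighbours' median was near 0, at 0.01 and -0.001, and 1 of 20 neighbours had a lower ratio. The 3 cathepsins that were lower in resistant cells are on 3 different chromosomes.

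Cathepsin C, or dipeptidyl peptidase I, is on the long arm of chromosome 11 (88293592 to 88337740). It was at 12.6 FPKM in parental and 16.4 FPKM in resistant cells, from 9563 and 12660 counts, the most counts of the 10 genes in each library. The fold was 1.30 (1.27 to 1.34). Its neighbours had a median log2 ratio of 0.03, unlike those of CTSD on the other arm of the same chromosome.

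CTSS and CTSK lie close together on chromosome 1 and are annotated on the same strand. CTSS, the cathepsin that completes the cleavage of the invariant chain in antigen-presenting cells, was at 28.3 FPKM in parental and 30.9 FPKM in resistant cells, from 7684 and 8526 counts (1.09-fold, 1.06 to 1.13). CTSK, the collagen-degrading protease of osteoclasts, was at 3.29 and 3.73 FPKM, from 401 and 463 counts, and the pseudogene UBE2D3P3, which overlaps it on the other strand, had 0 in both. CTSA, the protective protein that stabilises the lysosomal enzymes beta-galactosidase and neuraminidase, was at 13.6 and 14.9 FPKM, from 5334 and 5908 counts (1.09-fold, 1.05 to 1.13). Its row overlaps PLTP over 200 bases on the other strand, with 959 and 1169 counts, NEURL2, with 15 and 4, and a noncoding row, with 9 and 0. The genes of its partners were lower in resistant cells, with GLB1 at 14.8 FPKM in parental and 11.9 in resistant cells and NEU1 at 6.39 and 5.24 FPKM. LGMN, the legumain gene, was close to absent: 26 counts in parental and 9 in resistant cells, or 0.09 and 0.03 FPKM (2.93-fold lower, 1.33 to 7.11).

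**Figure D2:**
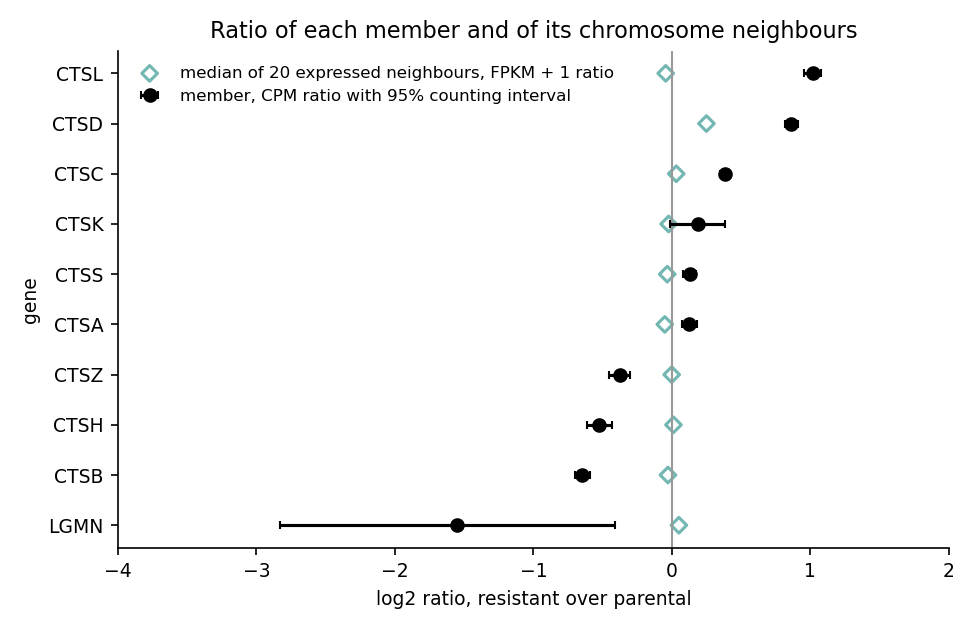
Log2 ratio of resistant over parental for each gene (black; CPM ratio with its 95% counting interval) and the median log2 ratio of its 20 expressed chromosome neighbours (open diamonds; FPKM + 1). The neighbours' medians lie near 0 except at CTSD, where the median is 0.25.

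The order of levels changed with the set of genes that were higher. In parental cells CTSS led at 28.3 FPKM, and CTSD, CTSL and CTSZ followed between 25.9 and 24.6 FPKM with overlapping counting intervals of neighbours in the order. In resistant cells CTSL and CTSD led, ahead of CTSS at 30.9 FPKM, and no neighbours in the order had overlapping intervals. CTSB dropped by 2 places, below CTSC and CTSA. Replicate spread was not measured, so these orders hold for the 2 libraries. CTSL, CTSD, CTSS and CTSZ were abundant transcripts, above 80% of expressed genes in both libraries, while CTSK was in the lower part of the range, above 31.3% of them in parental and 35.5% in resistant cells.

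The summed level of the 10 genes was 154.7 FPKM in parental and 196.0 FPKM in resistant cells, a ratio of 1.27. CTSL and CTSD made up 32.8% of that sum in parental and 49.6% in resistant cells. Without them the sum was 103.9 and 98.8 FPKM, a ratio of 0.95. The share of CTSB was 9.66% in parental and 4.86% in resistant cells, and that of CTSZ 15.9% and 9.65%. The level of CTSL relative to CTSB was 1.67 in parental and 5.28 in resistant cells, a change of 3.17-fold in the ratio of these 2 cysteine proteases.

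**Figure D3:**
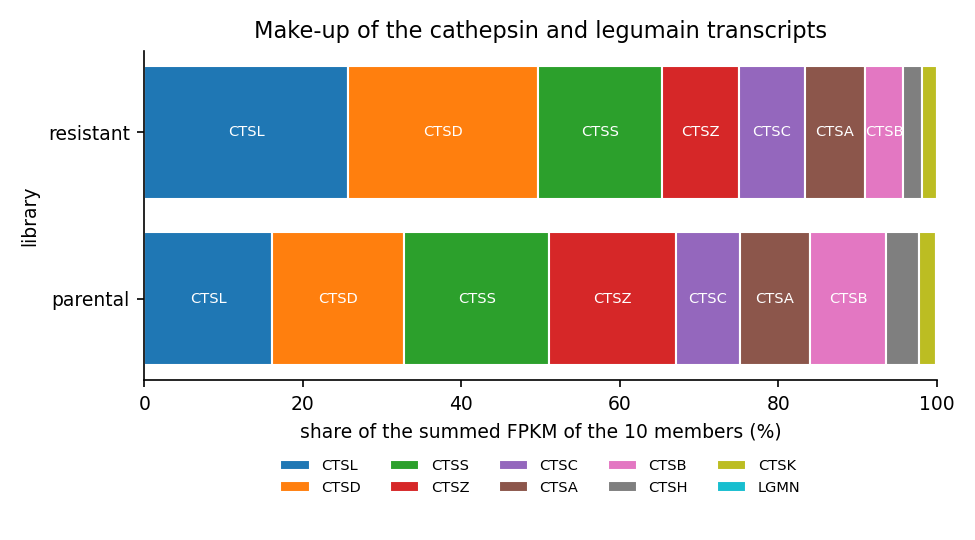
Share of each gene in the summed FPKM of the 10 genes, in percent, for the parental and the resistant library. CTSL and CTSD together take 32.8% in parental and 49.6% in resistant cells; LGMN is too low to be seen.

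The table marks 120 genes with the KEGG term for the lysosome, and 105 of them were expressed. These include all 9 expressed cathepsins described here. As a group the 105 genes were nearly level, with 59 above 0, 46 below and a median log2 ratio of 0.03, beside -0.02 over all expressed genes. CTSL was the highest of the 105 and CTSD the third, and CTSB was the second lowest. CTSG lay between CTSL and CTSD, at 155 FPKM in parental and 306 FPKM in resistant cells. The gene below CTSB was PPT2, at 3.01 and 0.87 FPKM, whose row overlaps a read-through gene. CTSH ranked eighth from the lowest. The cathepsins thus held places at both ends of the lysosome genes. This list was added after the data were seen.

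**Figure D4:**
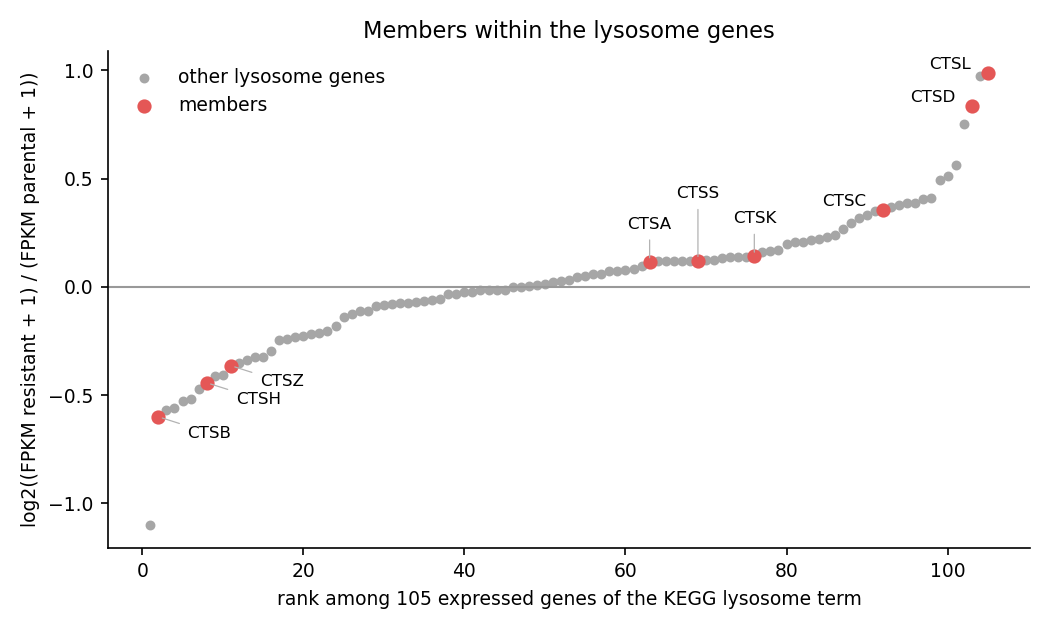
The 105 expressed genes with the KEGG lysosome term, ranked by log2((FPKM resistant + 1)/(FPKM parental + 1)); the 9 cathepsins are in red. CTSL is at the top and CTSB second from the bottom, with CTSA, CTSS and CTSK in between at 0.12 to 0.14.

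The inhibitors did not follow the enzymes in a single direction. Of 12 cystatins and cathepsin-inhibiting serpins listed, 6 had a row and 4 were expressed, with 2 above 0, 2 below and a median log2 ratio of -0.07. CST3, the secreted cystatin C, was at 29.2 FPKM in parental and 22.2 FPKM in resistant cells (1.31-fold lower, 1.27 to 1.36). The cytosolic CSTB was at 11.8 and 10.4 FPKM, and CSTA at 40.6 and 41.7 FPKM. CST7, or cystatin F, which is directed to the endolysosome and inhibits cathepsin C, was at 2.13 and 5.13 FPKM (2.41-fold higher, 1.96 to 2.99, from 127 and 311 counts). CST6 had 0 and 2 counts, and SERPINB13 was listed at 0.02 and 0 FPKM. A sum was taken over the cysteine cathepsins of the 10 genes, without other cathepsin-named genes, and over the listed inhibitors of every compartment. The first sum was 1.37 times the second in parental and 1.69 times in resistant cells. CTSL carried that difference: without it the ratios were 1.08 and 1.06.

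Among cathepsin-named genes outside the 10, CTSG was 1.97-fold higher in resistant cells (1.94 to 2.02). CTSW was at 0.24 FPKM in parental and 1.09 FPKM in resistant cells, from 28 and 126 counts. Its row overlaps FIBP on the other strand. The library protocol in the labels marks the second strand with dUTP, but the strand setting of the counting is not given in the sources used here. CTSO was at 2.56 and 2.87 FPKM. CTSF was at 0.30 and 0.23 FPKM, and CTSE had 6 and 0 counts. Of the other serine protease family genes listed as cathepsin C substrates, ELANE, AZU1 and PRTN3 were at high levels in both libraries. The rest were low or listed at 0. ELANE, neutrophil elastase, was at 359 FPKM in parental and 448 FPKM in resistant cells, AZU1 at 305 and 326, and PRTN3, proteinase 3, at 331 and 299. PRSS57 was at 0.42 and 1.07 FPKM. Of this list of 10, which includes CTSG, 8 had a row and 5 were expressed. Of these, 4 were above 0, beside 46.3% of all expressed genes, with a median log2 ratio of 0.32. That median was 0.16 with a pseudocount of 5 FPKM, 0.21 with a minimum of 5 FPKM and 0.08 with no filter on low values. GZMK was listed at 0 and 0.04 FPKM, and GZMA and GZMM at 0 in both.

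Class II molecules are loaded in the compartment where cathepsins act. The genes listed for class II presentation, which include CD74 and IFI30 besides HLA genes, were mostly higher. Of the expressed genes 7 of 8 were above 0, beside 46.3% of all expressed genes. The median log2 ratio was 0.16 and none was 1.5-fold apart. HLA-DRA was at 14.3 FPKM in parental and 21.1 FPKM in resistant cells, HLA-DRB5 at 18.1 and 23.9, and HLA-DMA at 2.20 and 1.58. HLA-DRB5 has near-identical relatives, so its counts are uncertain.

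The genes that sort hydrolases to the lysosome were level as a list, with 7 of 19 expressed genes above 0 and a median of -0.06. The endocytic receptor LRP1 was at 1.19 FPKM in parental and 0.42 FPKM in resistant cells, SCARB2, the receptor for glucocerebrosidase, at 3.47 and 2.03, and the sorting receptor SORL1 at 5.74 and 8.51. The transcription factors and nutrient sensors of lysosome gene expression were level too, with 9 of 20 above 0 and a median of -0.04. TFEB was at 2.76 FPKM in parental and 2.79 FPKM in resistant cells and TFE3 at 7.64 and 6.90. The largest ratios of this list were those of RRAGD (2.07 and 3.22 FPKM), the lysosomal channel MCOLN1 (2.47 and 1.61) and RRAGA (21.2 and 17.7). These are transcript levels and say nothing on the location or activity of the factors.

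Other peptidases, from a list drawn up for the lysosome, had a median log2 ratio of 0.32. Of its expressed genes 5 of 7 were above 0, beside 46.3% of all expressed genes. The carboxypeptidase CPVL was the exception in size, at 5.82 FPKM in parental and 1.03 FPKM in resistant cells (5.65-fold lower, 4.91 to 6.52). CPQ was at 2.93 and 4.22 FPKM and ASRGL1 at 1.97 and 2.94. CPVL, CPQ and ASRGL1 do not carry the KEGG lysosome term, so this list is wider than that term. The other hydrolases and activators were split evenly, 14 above 0 and 14 below, with a median of -0.01 that became 0.01 when FPKM was scaled to a median ratio of 0. Among them PSAP, the precursor of the saposins and a substrate of cathepsin D, was at 61.5 FPKM in parental and 91.4 FPKM in resistant cells. The acid nuclease DNASE2 was at 9.32 and 6.17 FPKM. Membrane proteins and proton pump subunits had a median of 0.05, with 15 of 26 above 0. LAMP1 was at 38.5 and 50.1 FPKM, ATP6V1D at 4.55 and 6.95, and CLN3 at 2.92 and 2.10.

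**Figure D5:**
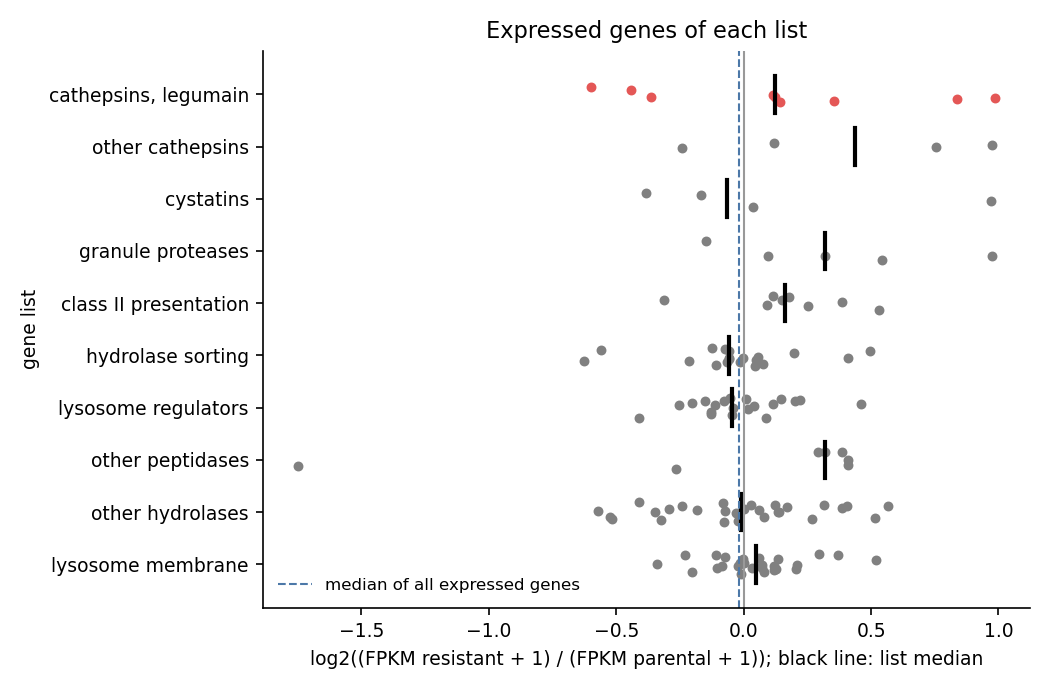
Log2((FPKM resistant + 1)/(FPKM parental + 1)) of the expressed genes of each list, 1 point per gene; black lines are list medians and the dashed line is the median of all expressed genes. The 9 cathepsins (red) spread from -0.60 to 0.99 around a median of 0.12.

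The libraries held 57434972 (parental) and 58285463 (resistant) counts. Monocytic markers were present in both, at a summed 1078 FPKM in parental and 451 FPKM in resistant cells over 15 rows, with 10 of 12 expressed markers below 0, beside 6065 of 11388 expressed genes. By the log2 ratio of FPKM + 1, 4 of 12 were at least 2-fold lower, beside 1.23% of expressed genes. These were S100A9 (487 and 48.4 FPKM), S100A8 (64.5 and 9.40), LYZ (225 and 95.8) and VCAN (5.38 and 0.90). MPO, at 2.81 and 0.94 FPKM, lay just inside that limit with a log2 ratio of -0.97, though it was 2.97-fold lower by CPM. CSF1R was at 12.2 and 7.74 FPKM and ITGAM at 3.06 and 2.70. CD33 was at 11.9 and 11.1, SPI1 at 64.4 and 62.3, CEBPA at 139 and 141, and FCGR1A at 29.6 and 41.2. Of 16 macrophage markers 14 had a row and 5 were expressed, summing to 260 FPKM in parental and 363 FPKM in resistant cells. They did not move in a single direction: CHI3L1 was at 181 and 310, GPNMB at 0.17 and 1.14, TREM2 at 36.2 and 16.5, APOC1 at 9.50 and 4.83 and CD68 at 31.6 and 29.2, while CD163 and MRC1 were at or near 0. Osteoclast markers, listed since CTSK is abundant in that cell type, summed to 2.43 and 3.24 FPKM. NFATC1 (1.46 and 1.86) and OSCAR (0.81 and 1.22) were the 2 that reached 1 FPKM, and MMP9 and OCSTAMP were listed at 0. Dendritic cell markers summed to 183 and 159 FPKM, nearly all of it IRF8 (177 and 151), with FLT3 at 4.76 and 5.85 and BATF3 at 0.89 and 1.64. T and natural killer cell markers summed to 40.9 and 47.0 FPKM, mostly CD4 (21.99 and 28.25), which monocytes also express, with NKG7 at 11.3 and 10.5, NCAM1 at 5.47 and 5.98 and IL7R at 1.75 and 1.87. Erythroid and megakaryocyte markers summed to 5.02 and 3.06 FPKM, with EPOR at 1.95 and 1.51, GP1BA at 1.23 and 0.60 and TFR2 at 1.20 and 0.82. B cell markers (1.38 and 1.19) and epithelial and fibroblast markers (0.37 and 0.59) had 0 genes at 1 FPKM. The part of the lower monocytic markers in the cathepsin differences was not tested. In bulk RNA, a different share of cells at a given stage and a different level per cell cannot be told apart.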

How the data were processed

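Each of the 2 libraries had, per the file headers, a column of FPKM (2 decimals) and one of counts in a deposited gene table. GRCh38 is the build in the submitters' processing notes, which list StringTie 1.3.4d, HISAT2 2.0.4, edgeR, DESeq2 and cutadapt 1.9 as the authors' tools without their roles. The deposited FPKM values are scaled by length and depth, the deposited counts are unscaled. Ratios were log2((FPKM resistant + 1)/(FPKM parental + 1)). Folds are ratios of CPM, computed from the counts, with Clopper-Pearson 95% intervals, and levels carry exact Poisson intervals. Genes entered with a symbol (22880 rows, clone names left out) and at least 1 FPKM in 1 library. Counts and FPKM ratios differed by a median of -0.004 log2 over 9326 genes. All 10 genes, every cystatin, cathepsin and granule protease with a row, and the 3 largest ratios of other lists were named, except 1 gene that is not reported here. So were marker genes at 1 FPKM or more and genes overlapping the 10. TFEB, TFE3, GLB1, NEU1, PPT2 and marker genes at or near 0 were added after their values were seen, as was the KEGG list. The genes and lists were chosen with earlier results of these data known. Of the table's rows, 30027 matched GENCODE 29 and 99.75% of these overlapped the same gene. Intervals were tested on simulated counts with Poisson error alone, which checks their computation and not the spread of real libraries. Alternatives covered pseudocount, filter, scaling (with TMM factors from edgeR 4.0.16), overlapping rows and chromosome neighbours. Intervals came from scipy 1.17.1, tables from pandas 2.3.3 (Python 3.11.15) and figures from matplotlib 3.10.9.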

Additional observations from a re-analysis of the deposited data

How the results depend on the processing

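No paired analysis was possible because each group had 1 library. Over 7 alternatives for each of the 10 genes, 0 of 70 values changed direction. A further 8 were marked as moved, by a limit scaled to the counting interval. Among these, CTSC and CTSD with TMM-scaled CPM still lay inside the counting interval of their fold. With a pseudocount of 5 FPKM the log2 ratio was 0.89 for CTSL, 0.75 for CTSD and -0.46 for CTSB. For CTSD it was 0.88 with TMM-scaled CPM and 0.59 relative to its chromosome neighbours. The count of genes at least 2-fold apart, 0 as reported, was 1 with a pseudocount of 0.1 FPKM, 1 with CPM plus 1, and 3 with the 1.5-fold rule. The ratio of cysteine cathepsins to cystatins was 1.599 in parental and 1.944 in resistant cells without CSTB, and 1.08 and 1.06 without CTSL. Of 93 list medians under alternatives, 3 changed sign: the cysteine cathepsins were at -0.12 with a minimum of 5 FPKM, which drops CTSK, the cystatins at 0.004 with no filter on low values, and the other hydrolases at 0.009 with FPKM scaled to a median ratio of 0. No replicate was available to leave out. Depth limits LGMN most, with 26 counts in parental and 9 in resistant cells.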
